A study of Arabidopsis thaliana with 6 samples.

Results

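Roots of an RXR1 overexpressor were compared directly with roots of an rxr1 mutant, on 4 of the 6 arrays of a study that also holds wild-type roots. RXR1 (AT3G25240) encodes a protein of the DUF506 family and is known in Arabidopsis as a repressor of root hair elongation. The comparison sets the line with more RXR1, as labelled, against the line without normal RXR1, and asks which root transcripts differ between these opposite states. The members were the arrays labelled as AtRXR1 overexpression (n = 2) and as AtRXR1 mutant (n = 2). The wild-type arrays (n = 2) are given beside the leading genes for orientation and stayed out of the fit. All plants were Arabidopsis thaliana seedlings of 7 days, grown vertically on solid MS medium, and RNA came from roots. The promoter of the overexpression construct, the mutant allele, the number of independent lines and the background accession are not given in the sources used here. RNA was hybridised to the Affymetrix ATH1 array, on which a set of short probes (a probe set) reads each transcript near its 3′ end.

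A root hair is a tubular outgrowth of a root epidermal cell that extends only at its tip. Growth at the tip needs secretion of wall proteins and of enzymes that loosen or crosslink the wall, among them expansins, xyloglucan endotransglucosylases, extensins and class III peroxidases. Many of these genes are transcribed almost only in hair-forming cells, so RNA of the root reads them as a group. A separate set of plant genes, including STZ, CML38 and PUB22, is known to be induced within minutes by touch, wounding, cold or elicitors.

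Signals are given as log2 of the deposited RMA signal, and differences as overexpressor minus mutant on that scale. A value of 1 is a 2-fold difference. The median signals of the 4 arrays were close, between 108.53 and 111.5 intensity units. In the authors' deposited table the correlations among these 4 arrays ran from 0.994 to 0.998, whereas wild-type replicate 2 correlated at 0.97 to 0.983 with the other 5 arrays. The replicate SD over all probe sets was 0.101 in the overexpressor, 0.114 in the mutant and 0.191 in wild type. The labels do not state whether the 2 replicates of a line were grown apart, so the p-values cover the spread between arrays, part or all of which may be technical. RXR1 itself had no probe set under its name here, so the labelled overexpression and mutation could not be read from its own level. Of its 10 nearest protein-coding genes, 4 were measured, and their differences ran from 0.02 (AT3G25210) to 0.21 (AT3G25280), none of them called. For the labelled tissue, the only listed markers measured were the root hair markers EXPA7 and EXPA18. They gave log2 signals between 7.58 and 8.87 on these 4 arrays. None of the markers listed for other root cell types or for green shoots was measured under a name. In a separate family, 8 photosystem and light-harvesting genes had median log2 signals of 6.88 to 7.35 on these arrays, against 6.77 for all probe sets. The 3′ minus 5′ signal of an actin control, a sign of RNA integrity, was 3.18 and 3.02 in the overexpressor, 3.22 and 3.32 in the mutant, and 3.32 and 3.36 in wild type. The overexpressor and mutant arrays did not overlap in this control. Those of a second actin control did, at 1.21 and 1.11 in the overexpressor against 1.29 and 1.19 in the mutant. A ubiquitin control was apart in the opposite direction, at 1.40 and 1.36 in the overexpressor against 1.34 and 1.32 in the mutant, as was a second one, at 0.008 and 0.011 in the overexpressor against -0.027 and -0.006 in the mutant. The arrays overlapped in both GAPDH controls. The part of RNA quality in the results below was not tested.

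Most of the calls were lower in the overexpressor than in the mutant, although positive and negative differences were about equally frequent over all probe sets, at 51.4% and 48.6%. The called falls included enzymes and secreted proteins of the root hair wall, CAP-domain proteins, jacalin-related lectins and enzymes of metabolism, each by 1.45-fold to 2.4-fold. SGP1 alone showed a much larger difference, in the other direction. Of 22746 probe sets tested, 58 (0.255%) were called at an adjusted p under 0.05 (limma with Benjamini-Hochberg adjustment). Of these, 53 (0.233%) were lower in the overexpressor and 5 (0.022%) were higher. The falls lay between -1.26 and -0.54, with a median of -0.76, and 7 of them reached 2-fold. Most of the transcriptome differed little: 93.4% of probe sets lay within 0.25 of 0, and the median difference was 0.003. At an unadjusted p under 0.05 there were 1068 higher (4.7%) and 1326 lower (5.83%). The called probe sets had a median log2 signal of 7.29, against 6.77 for all.

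Exactly 1 listed gene stood behind 30 of the 58 called probe sets, 26 lower and 4 higher. Another 2 had several genes and 26 had none listed, so 48.3% of the calls stay without a single name. Named calls were found on every chromosome, at 0.261%, 0.136%, 0.146%, 0.357% and 0.233% of the probe sets with a locus on chromosomes 1, 2, 3, 4 and 5. Among the protein-coding genes of these 30, no pair lay within 10 protein-coding genes of each other. AT1G34330, listed as a transcribed pseudogene, was not placed, and the other 28 called probe sets have no position here.

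**Figure D1:**
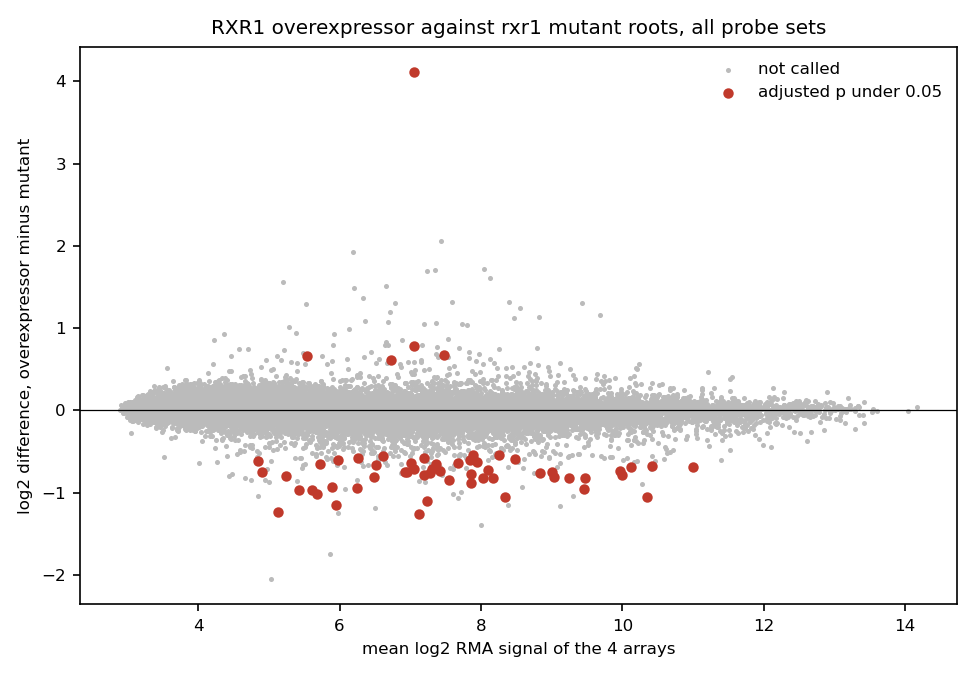
Each point is a probe set, with the mean log2 RMA signal of the 4 arrays on the x axis and the log2 difference, overexpressor minus mutant, on the y axis. Red points are the 58 called at an adjusted p under 0.05: SGP1 stands alone at 4.11, 4 others lie between 0.61 and 0.78, and 53 lie below 0.

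The calls rested on all 4 arrays being present. Without overexpressor replicate 2 no probe set was called by limma, with 1418 at an unadjusted p under 0.05. Without overexpressor replicate 1 there were 11, of which 3 were among the 58. Without mutant replicate 1 there were 47, with 24 of the 58 among them, and without mutant replicate 2 there were 23, with 11 of the 58. None of the 58 could change direction in these fits, since the overexpressor and mutant arrays did not overlap in any of the 58. The excess of falls among all calls was not kept in every such fit. Without overexpressor replicate 1, rises were slightly more frequent than falls among the few called, and without mutant replicate 2 the excess of falls was smaller.

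SGP1 (AT5G54840) showed by far the widest gap between the lines. It encodes a small GTP-binding protein related to Spg1, which acts in septum formation in fission yeast (Schizosaccharomyces pombe). Its log2 signal was 9.18 and 9.03 in the overexpressor, 5.34 and 4.66 in the mutant, and 9.02 and 9.64 in wild type. The mutant arrays alone were low, and the overexpressor lay within the range of wild type. The difference of 4.11 ± 0.197 (SE, n = 2 per group) corresponds to 17.2-fold, with a 95% interval of 3.65 to 4.57 and a limma adjusted p of 0.00242. Without overexpressor replicate 2 the difference was 4.19 and its limma adjusted p was 0.0692. In the mutant the SGP1 signal ranked at percentiles 34 and 26.3 among all probe sets of its array, against 86.6 and 84.9 in the overexpressor. No detection calls were used here, so the mutant signal may be background and the fold a lower bound. Of the 10 protein-coding genes nearest to SGP1, 6 were measured, at differences of -0.21 (AT5G54830) to 0.07 (AT5G54880). None of these 6 was called.

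The other called rises were small. AT4G00780, which encodes a TRAF-like family protein, had log2 signals of 7.41 and 7.49 in the overexpressor, 6.69 and 6.64 in the mutant, and 6.98 and 6.52 in wild type. Both overexpressor arrays lay above the other 4, and the difference from the mutant was 0.78 ± 0.0747 (SE, limma adjusted p = 0.0292). AT1G06830, a glutaredoxin gene, stood at 5.79 and 5.96 in the overexpressor, 5.24 and 5.18 in the mutant, and 5.42 and 5.28 in wild type, a difference of 0.67 (limma adjusted p = 0.0463). It ranked only at percentiles 33.0 and 32.5 of the mutant arrays, so that signal may be background. AT1G44050, for a protein with Cys/His-rich C1 domains, rose by 0.61 (limma adjusted p = 0.0431). Wild type does not settle which line moved in that gene, since its arrays stood at 6.34 and 7.06, against 6.98 and 7.08 in the overexpressor and 6.44 and 6.41 in the mutant. The fifth rise, of 0.67, belonged to a probe set with no listed gene.

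The largest called fall was that of OCT1, which encodes an organic cation and carnitine transporter. OCT1 had log2 signals of 6.51 and 6.46 in the overexpressor, 7.86 and 7.64 in the mutant, and 7.46 and 7.45 in wild type. The overexpressor arrays were the lowest and the mutant arrays the highest of the 6. The difference was -1.26 ± 0.0902 (SE, 2.4-fold, limma adjusted p = 0.0135). It was no longer called without either overexpressor array (limma adjusted p = 0.0556 without replicate 1 and 0.11 without replicate 2).

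Several of the other called falls were in genes for enzymes. AT1G52820, for an oxygenase that uses 2-oxoglutarate and iron, had 6.72 and 6.65 in the overexpressor, 8.02 and 7.56 in the mutant, and 7.86 and 8.2 in wild type, a difference of -1.11 ± 0.143 (SE, limma adjusted p = 0.0463). PPDK, pyruvate orthophosphate dikinase, which interconverts pyruvate and phosphoenolpyruvate, had 5.30 and 5.57 in the overexpressor, 6.38 and 6.35 in the mutant, and 6.27 and 6.54 in wild type, a difference of -0.93 ± 0.1 (SE, limma adjusted p = 0.0342). In both genes only the overexpressor stood apart. PPDK ranked only at percentiles 33.5 and 36.1 of the overexpressor arrays, so that signal may be background. FDH, the mitochondrial formate dehydrogenase, fell by 0.77, with 7.43 and 7.52 in the overexpressor, 8.15 and 8.35 in the mutant, and 8.27 and 8.43 in wild type. AT5G38020, for a methyltransferase that uses S-adenosylmethionine, fell by 0.82. Among calls beyond the first 15 by size, which were named after their values were seen, were AT5G47980 (-0.73), for an acyltransferase of the BAHD family, and AT3G29410 (-0.71), for a protein of the terpene synthase family. AT1G14240 (-0.66) encodes a nucleoside phosphatase, AT4G23590 (-0.57) a protein of the tyrosine transaminase family and scpl28 (-0.54) a serine carboxypeptidase-like protein.

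Further called falls were found in AT5G20790 (-0.79), AT1G19960 (-0.76), AT1G05340 (-0.75), AT3G46270 (-0.75) and AT3G23870 (-0.65). AT1G05340 encodes a small protein with a cysteine-rich transmembrane module. AT1G34330 (-0.76) is listed as a transcribed pseudogene, so its probes may also read a related gene. It ranked only at percentiles 23.3 and 24.0 of the overexpressor arrays, so that signal may be background. AT5G51520 (-0.61) encodes a protein of the invertase and pectin methylesterase inhibitor family.

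Wild type lay with the mutant in most of these falls. The wild-type mean was nearer to the mutant than to the overexpressor in 49 of the 53 called lower, and both wild-type arrays lay above both overexpressor arrays in 50. The median of overexpressor minus wild type over the 53 was -0.90, and that of mutant minus wild type was -0.12. These probe sets were called for a low overexpressor relative to the mutant and both medians use the same wild-type arrays, so the values describe the calls and do not compare the lines' effects. In 3 called genes wild type lay below the overexpressor mean. For AT5G35940, a jacalin-related lectin gene, the log2 signals were 8.15 and 8.23 in the overexpressor, 8.74 and 8.83 in the mutant, and 7.77 and 8.01 in wild type. AT5G51520 had 5.69 and 5.65 in the overexpressor, 6.34 and 6.21 in the mutant, and 5.65 and 4.94 in wild type. AT4G23590 had 6.95 and 6.86 in the overexpressor, 7.45 and 7.50 in the mutant, and 7.06 and 6.23 in wild type. In these 3 genes the mutant held the highest arrays of the study. AT1G14240 was also nearer to the overexpressor, with 7.02 and 7.06 there, 7.62 and 7.77 in the mutant and 7.30 and 7.26 in wild type.

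**Figure D2:**
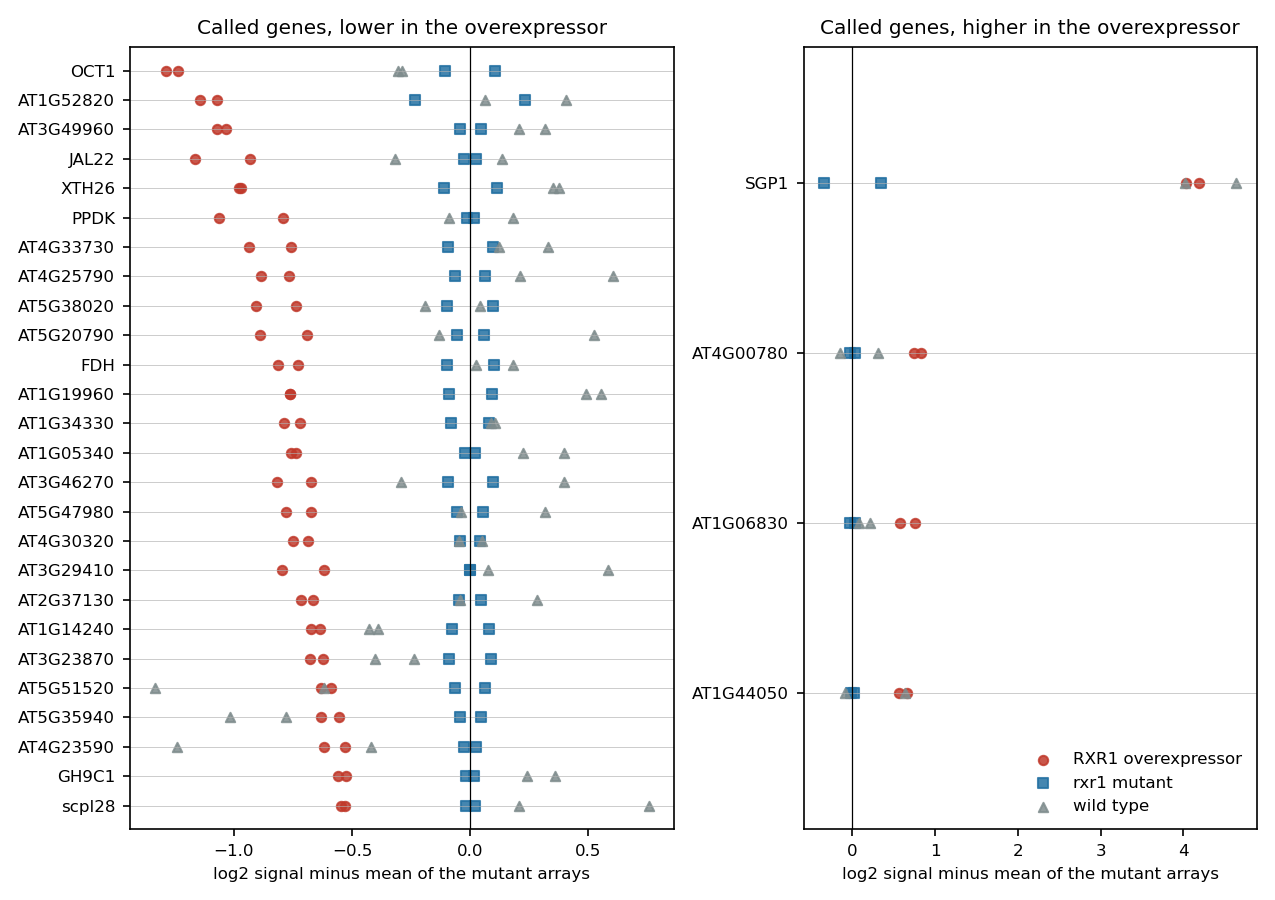
Log2 signal of each array minus the mean of the mutant arrays (x axis) for the 26 named genes called lower (left) and the 4 called higher (right), with red circles for the overexpressor, blue squares for the mutant and grey triangles for wild type. The overexpressor and mutant arrays are apart in all 30, and wild type lies near the mutant in most genes but at or below the overexpressor in AT5G51520 and AT5G35940, and near the overexpressor for SGP1.

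Genes of the root hair wall and of proteins secreted by root hairs had lower mean signals in the overexpressor, and some of them fell. Of 39 listed, 13 (33.3%) were measured under a name, and all 13 had lower means than in the mutant, against 48.6% of all probe sets. Of the 13, 5 were called lower against 0.233% of all probe sets, 12 had an unadjusted p under 0.05 against 5.83% of all probe sets, and 12 had both overexpressor arrays below both mutant arrays against 20.3% of all. The median difference was -0.58, against 0.003 over all probe sets. In bulk root RNA, fewer root hair cells and less of these RNAs per cell cannot be told apart. The list was chosen with earlier results of these arrays known and is not independent evidence of its direction.

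The 5 called members cover enzymes and secreted proteins. AT3G49960, a class III peroxidase gene, had log2 signals of 7.84 and 7.80 in the overexpressor, 8.91 and 8.82 in the mutant, and 9.07 and 9.18 in wild type. The replicates were much closer to each other than the groups, and the difference was -1.05 ± 0.0744 (SE, limma adjusted p = 0.0135). XTH26, a xyloglucan endotransglucosylase/hydrolase that cuts and rejoins wall xyloglucan, had 5.11 and 5.12 in the overexpressor, 6.20 and 5.98 in the mutant, and 6.47 and 6.44 in wild type. Its difference was -0.97 ± 0.0914 (SE, limma adjusted p = 0.0292). XTH26 ranked only at percentiles 31.5 and 31.4 of the overexpressor arrays, so that signal may be background. The overexpressor was lowest and wild type highest in both genes. AT4G33730 and AT4G25790 encode CAP-domain proteins, secreted proteins related to pathogenesis-related protein 1. AT4G33730 had 7.03 and 7.21 in the overexpressor and 7.87 and 8.06 in the mutant, a difference of -0.85 (limma adjusted p = 0.0362). AT4G25790 had 7.55 and 7.67 in the overexpressor and 8.37 and 8.5 in the mutant, a difference of -0.83 (limma adjusted p = 0.0337). GH9C1, an endoglucanase acting on the hair wall, had 7.60 and 7.63 in the overexpressor, 8.17 and 8.14 in the mutant, and 8.40 and 8.52 in wild type. Its difference was small, at -0.54 ± 0.071 (SE, limma adjusted p = 0.0463). The replicates lay close together, but that SE rests more on the spread over all probe sets than on the gene's own arrays.

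The other 8 members did not pass. AT1G34510, a class III peroxidase gene, had the largest difference in the list, with 7.06 and 7.54 in the overexpressor, 8.37 and 9.03 in the mutant, and 8.51 and 8.96 in wild type. Both groups spread widely there, and its -1.40 ± 0.225 (SE) had a limma adjusted p of 0.0755. The markers EXPA18 and EXPA7, expansins of hair-forming cells, were at -0.69 ± 0.117 and -0.58 ± 0.0827 (SE, limma adjusted p = 0.0882 and 0.0559). EXPA18 had 7.93 and 8.15 in the overexpressor against 8.59 and 8.87 in the mutant, and EXPA7 had 7.58 and 7.71 against 8.17 and 8.29. Neither expansin overlapped between the lines. The peroxidase genes AT1G30870 and AT4G26010 were at -0.56 and -0.46, and the extensin family genes AT5G06630 and AT3G54580 at -0.48 and -0.20. AT1G23720, of the same extensin family, was the only member whose arrays overlapped, with 9.99 and 9.95 in the overexpressor against 10.07 and 9.94 in the mutant, a difference of -0.03.

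Relative to the mutant mean of each gene, the median of the 13 was -0.64 and -0.53 in the overexpressor arrays, -0.02 and 0.02 in the mutant arrays, and 0.08 and 0.31 in the wild-type arrays. Leaving out each array in turn gave list medians of -0.64 to -0.53, so no single array carried the shift. The 3 measured genes of the separate list of root hair regulators and tip growth, of 29 listed, differed little, from -0.06 (SCN1, a regulator of where hairs emerge) to 0.11. Of 12 epidermis fate genes only 2 were measured, at 0.01 and 0.16, with neither called.

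**Figure D3:**
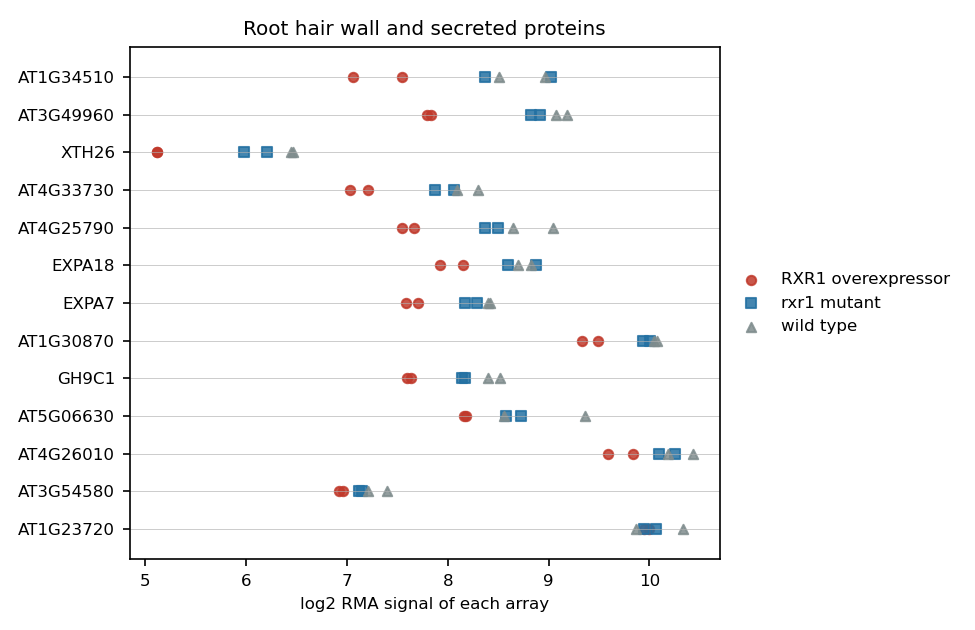
Log2 RMA signal (x axis) of each array for the 13 measured genes of root hair wall and secreted proteins, ordered by the size of the difference. Red circles (overexpressor) lie left of blue squares (mutant) in every gene but AT1G23720, where they overlap, and grey triangles (wild type) lie at or right of the mutant in most genes.

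The fall did not extend evenly over the protein families to which these genes belong. The peroxidase, CAP-domain and lectin families were added after the files had been read, as whole families. The other families, from the expansins on, were drawn only from genes measured under a name, so members without a named probe set were not seen. Of 73 class III peroxidase genes, 55 were measured, with 26 higher, 29 lower and a median of -0.01. Of these 55, AT3G49960 and AT2G37130 were called lower and none higher, against 0.233% and 0.022% of all probe sets. At an unadjusted p under 0.05, 13 of the 55 were lower and 7 higher, against 5.83% and 4.7% of all. AT2G37130 is not on the root hair list and had 10.68 and 10.63 in the overexpressor, 11.30 and 11.39 in the mutant, and 11.30 and 11.63 in wild type. It fell by 0.69 (limma adjusted p = 0.0342). AT5G64120 was at -0.54 (limma adjusted p = 0.0587) and AT4G33420, at the other end, at 0.42 (limma adjusted p = 0.312) and at 0.23 without mutant replicate 1.

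The CAP-domain family, with 19 of 22 genes measured, was split in the same manner. AT4G33730, AT4G25790 and AT4G30320 were called lower, and AT1G50060 (-0.64), AT2G19970 (-0.57) and PR-1-LIKE (-0.38) had unadjusted p under 0.05 without a call. Of the 19 genes, 3 were called lower and 6 were lower at an unadjusted p under 0.05, against 0.233% and 5.83% of all probe sets. Among the 3 called, AT4G33730 and AT4G25790 were already counted in the root hair list. None was called higher and 1 was higher at an unadjusted p under 0.05, against 0.022% and 4.7% of all. AT4G30320 had 6.91 and 6.98 in the overexpressor, 7.62 and 7.71 in the mutant, and 7.62 and 7.72 in wild type, a difference of -0.72 (limma adjusted p = 0.0337). The other 13 genes lay between -0.05 and 0.18, and the family median was 0.07. That median was -0.61 over the members with a mean log2 signal of at least 6, a filter that removed most of the 13.

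Among 21 of 43 jacalin-related lectin genes measured, JAL22 and AT5G35940 were called lower and none higher, against 0.233% and 0.022% of all probe sets. These lectins bind sugars, and several are abundant in roots. JAL22 had 9.94 and 9.71 in the overexpressor, 10.85 and 10.90 in the mutant, and 10.55 and 11.00 in wild type. It fell by 1.05 ± 0.0936 (SE, limma adjusted p = 0.0268), and its wild-type arrays lay around the mutant. JAL33 (-0.42) and JAL34 (-0.24) did not overlap between the lines but were not called, with limma adjusted p of 0.193 and 0.356. AT1G52050 (-0.70) and AT1G52060 (-0.54) differed more, but their arrays overlapped between the lines. At an unadjusted p under 0.05, 6 of the 21 were lower and 3 higher, against 5.83% and 4.7% of all probe sets. The family median was -0.07, and -0.42 over the members with a mean log2 signal of at least 6. AT1G33790 was at its upper end with 0.28.

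Of the 19 expansin genes measured under a name, 11 were higher and 8 lower, with no call in either direction and a median of 0.02. The same family thus held EXPA18 at -0.69 and EXLA3, an expansin-like gene, at 1.37 ± 0.358 (SE, limma adjusted p = 0.26), which was 0.85 without overexpressor replicate 2. XTH26, also on the root hair list, was the only call among 10 xyloglucan transglycosylases measured under a name, against 0.233% of all probe sets called lower. Of the 10, 6 were higher and 4 lower.

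Rapid touch and stress response genes had higher mean signals in the overexpressor, without a single call. Of 56 listed, 15 (26.8%) were measured under a name, and 14 were higher, as were 51.4% of all probe sets, with a median of 0.95. Of the 15, 10 had an unadjusted p under 0.05 against 4.7% of all probe sets, and 10 had both overexpressor arrays above both mutant arrays against 20.3% of all. This list too was chosen with earlier results of these arrays known and is not independent evidence of its direction. The replicates of these genes differed far more than those of other genes, with a median SD of 0.324 in the overexpressor and 0.348 in the mutant, against 0.0556 and 0.0634 over all probe sets.

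STZ, a zinc-finger transcriptional repressor, had log2 signals of 8.67 and 9.13 in the overexpressor, 6.42 and 7.95 in the mutant, and 8.42 and 8.31 in wild type. The mutant arrays were lowest and also far apart from each other. The difference was 1.72 ± 0.425 (SE, limma adjusted p = 0.224). It shrank to 0.95 once mutant replicate 1 was dropped and grew to 2.48, a call (limma adjusted p = 0.0139), once mutant replicate 2 was dropped. AT4G29780 had 7.56 and 8.83 in the overexpressor, 6.02 and 6.95 in the mutant, and 7.91 on both wild-type arrays. Its difference of 1.71 (limma adjusted p = 0.224) was 1.07 without overexpressor replicate 2. CML38, a calmodulin-like calcium sensor, had 5.53 and 6.42 in the overexpressor, 4.05 and 4.79 in the mutant, and 5.37 and 5.59 in wild type, a difference of 1.55 (limma adjusted p = 0.139). In each of these genes wild type lay nearer to the overexpressor than to the mutant.

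AT3G10930 (1.51) was at 0.78 without mutant replicate 1 and passed without mutant replicate 2, at 2.23 (limma adjusted p = 0.0137). AT4G27654 (1.49) was at 0.98 without overexpressor replicate 2. AT4G27280, which encodes an EF-hand calcium-binding protein, had the smallest p of the list, with 10.04 and 10.49 in the overexpressor, 8.85 and 9.37 in the mutant, and 9.85 and 9.60 in wild type. Its difference was 1.16 ± 0.193 (SE, limma adjusted p = 0.0831). AT4G27652 was at 1.04, but at 0.61 without mutant replicate 1. AT2G25735 was at 0.95, with 0.42 and 1.48 once overexpressor replicate 2 or replicate 1 was dropped. The U-box ubiquitin ligase genes PUB22 and PUB23 were at 0.37 and 0.38, and at 0.24 and 0.18 once overexpressor replicate 2 was dropped. PUB24 was the only member below 0, at -0.09.

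Relative to the mutant mean of each gene, the median of the 15 was 0.42 and 1.30 in the overexpressor arrays, -0.25 and 0.25 in the mutant arrays, and 0.74 and 0.87 in the wild-type arrays. By this median the overexpressor arrays lay on either side of wild type. Without overexpressor replicate 2 the list median was 0.42, and without overexpressor replicate 1 it was 1.30. Whether handling before harvest differed between samples was not tested. Of 28 probe sets at least 2-fold higher in the overexpressor, 11 had 1 listed gene and 7 of these were on this list, while only SGP1 was called. At least 2-fold lower were 18 probe sets, of which 7 were called.

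**Figure D4:**
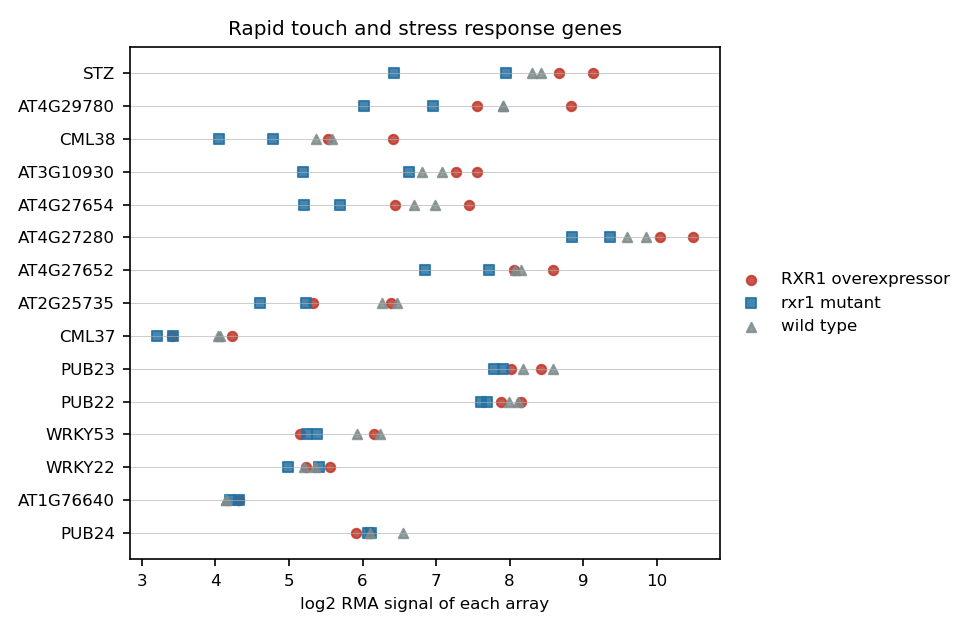
Log2 RMA signal (x axis) of each array for the 15 measured rapid touch and stress response genes, ordered by the difference. Red circles (overexpressor) lie right of blue squares (mutant) without overlap in 10 genes, and replicates of 1 line are up to 1.52 apart (STZ in the mutant).

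The DUF506 family of RXR1 had 6 of 13 genes measured. All 6 had positive differences with a median of 0.08, none was called, and the median turned to -0.06 without mutant replicate 1. AT2G39650 had 7.22 and 7.48 in the overexpressor, 6.72 and 6.81 in the mutant, and 7.18 and 7.41 in wild type, a difference of 0.59 ± 0.101 (SE, limma adjusted p = 0.0921). AT1G12030 was at 0.19, and the other 4 were below 0.09 with overlapping arrays.

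Among nutrient and hormone lists, 5 of 31 iron deficiency genes (median 0.03) and 8 of 34 auxin genes (median -0.05) were measured, with no member called or at an unadjusted p under 0.05. The lists for phosphate starvation and nitrate uptake had no member measured under a name. In the remaining families, which hold only genes measured under a name, no member was called. Of 21 beta-glucosidase genes, 13 were lower (median -0.06), led by BGLU45, which acts on glucosides of lignin precursors. BGLU45 had 5.69 and 5.51 in the overexpressor, 6.35 and 6.78 in the mutant, and 6.52 and 6.91 in wild type, a difference of -0.96 (limma adjusted p = 0.0587). Of 13 glutathione transferases, 9 were lower (median -0.11, with GSTU18 at -0.52), and of 11 late embryogenesis abundant genes 9 were lower (median -0.08). LEA18 of that family stood at -0.85. Dropping mutant replicate 2 left it at -0.26, and dropping mutant replicate 1 gave a call at -1.45 (limma adjusted p = 0.0069). Of 8 photosystem and light-harvesting genes, 7 were lower (median -0.16, and -0.28 to -0.09 over leaving out each array), with PSAN at -0.48 (limma adjusted p = 0.138). All 5 pectin enzyme genes had positive differences (median 0.18, and 0.10 without overexpressor replicate 2). The medians were 0.04 for 26 cytochrome P450 genes and 8 histone genes alike, and 0.01 for 50 UDP-glycosyltransferases.

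**Figure D5:**
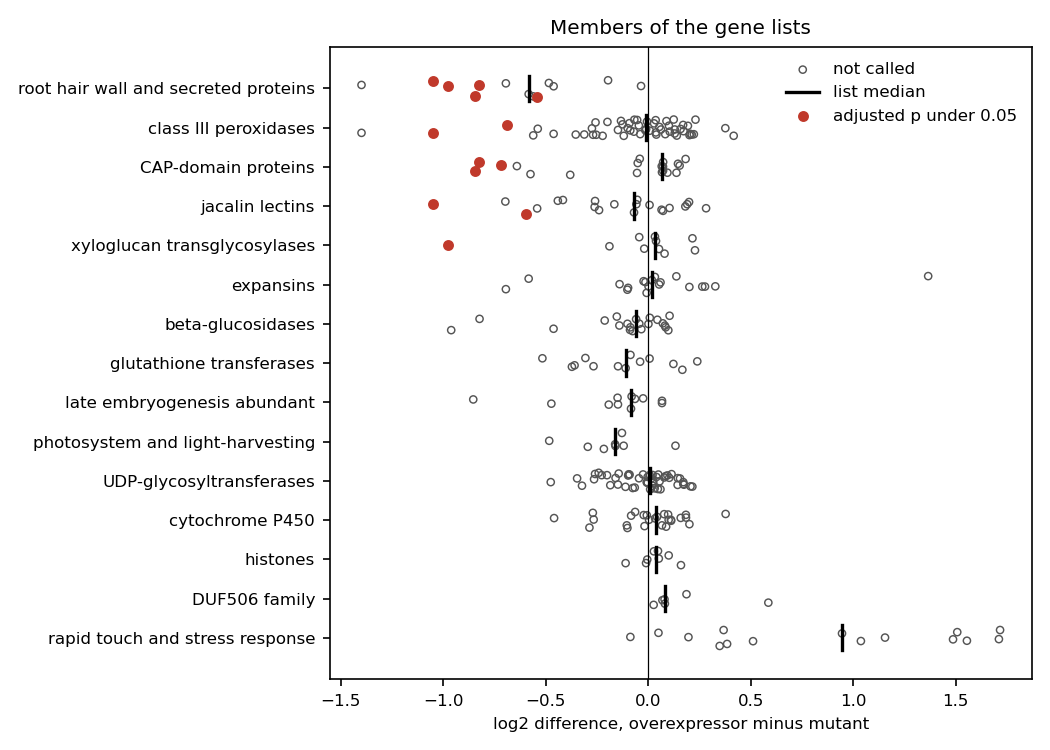
Each circle is a measured gene, placed by its log2 difference, overexpressor minus mutant (x axis), in 15 rows of gene lists and families. Red points were called and black bars mark list medians. The root hair list has its median at -0.58 and the rapid stress list at 0.95, while the medians of the other 13 rows drawn lie between -0.16 and 0.08.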

How the data were processed

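Root RNA was measured on 6 Affymetrix ATH1 arrays. The deposited signals have the unit intensity on a linear scale, made with RMA in Affymetrix Expression Console per the submitters' processing notes, which name no versions. A second deposited signal table differed by at most 5e-06. The authors also deposited a correlation score for each pair of arrays. Log2 was taken with no pseudocount, and 64 control probe sets of 22810 were left out. Probe sets were named with GEO's platform annotation. Symbols were brought up to date with the TAIR10.1 gene table, whose coordinates served only to order protein-coding genes along the chromosomes. Of the probe sets, 13513 had 1 gene, 503 several and 8730 none listed, and 13436 matched a locus (13286 loci). For a locus with several probe sets the brightest was used.

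The overexpressor and mutant arrays were fitted alone with limma 3.58.1 in R 4.3.3 (lmFit, eBayes), because wild-type arrays spread more widely. The fit had 2 residual and 5.189 prior degrees of freedom. Tests were two-sided, and probe sets with a Benjamini-Hochberg adjusted p under 0.05 over all 22746 were called. With 2 arrays per line the smallest p of an exact permutation test is 0.333. The number of arrays limits the precision. The fit was tested on simulated data. The alternatives tried were other arrays in the variance, a replicate block, 2 scalings, a filter on dim probe sets, an intensity trend and leaving out each array.

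Named genes were, in each direction, the first 15 called with 1 gene and no overlap of the arrays, by size. Where fewer than 10 were called, places were filled to 10 with genes at an unadjusted p under 0.01. Up to 4 members of each list were added, and further called or 2-fold genes and list members were named after their values were seen. The members and lists were chosen with earlier results of these data known. The whole families of peroxidases, CAP-domain proteins and lectins were added after the files had been read. Lists are described by counts and medians, with no test. Promoter motifs were planned but not analysed here.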

Additional observations from a re-analysis of the deposited data

How the results depend on the processing

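The count of 58 called depended on the fit. With all 6 arrays it was 3 (1 higher, 2 lower), with an intensity trend 142 (18 higher, 124 lower), and over leaving out each array it ran from 0 to 47. Those that leave out an array have fewer degrees of freedom, and the fit of all 6 has wild type's wider spread in the variance. Median centring gave 68, quantile normalization 81, and the filter at a mean log2 signal of 6 gave 81 (46 shared with the 58). With the replicate number as a block 395 were called (140 higher, 255 lower), the 58 among them. The block leaves 1 residual degree of freedom, and same-numbered arrays correlated at 0.125 in their deviations, so with 2 numbers the pairing is not established. The sign of the 58 could not change on leaving out an array, since the arrays of the 2 lines were apart in all 58. The fits with all 6 arrays, the block, the trend or the filter keep each difference as it is. With median centring and quantile normalization, none of the 58 changed sign.

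Directions turned for the following values near 0 or with dim members, and the cause was not tested. Leaving out each array in turn, PUB24 ran from -0.180 to 0.00675, AT1G23720 from -0.097 to 0.0274, the median of CAP-domain genes from -0.0604 to 0.0459, of expansins from -0.0507 to 0.0653, of UDP-glycosyltransferases from -0.0289 to 0.00225 and of histones from -0.0221 to 0.0641. The median of class III peroxidases, -0.01 with all 4 arrays, also lay on either side of 0, from -0.0539 to 0.0264. Those of the DUF506, iron deficiency, WRKY, calmodulin-like and xyloglucan transglycosylase genes turned sign too without at least 1 array, and stayed within 0.06 of 0 when they did. With the filter on dim probe sets the median of CAP-domain genes was -0.607, of UDP-glycosyltransferases -0.0908, of calmodulin-like and calcium-dependent kinases -0.114, of WRKY factors -0.0888 and of cytochrome P450 genes -0.0352. Quantile normalization gave -0.0164 for UDP-glycosyltransferases and -0.0239 for iron deficiency genes, and median centring gave 0.0138 for class III peroxidases.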

Other observations

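Single arrays stood at least 1 log2 unit beyond all 5 others for a few probe sets. Mutant replicate 2 did so upward in 7 and overexpressor replicate 1 in none. Among the 7 were LEA18, M17, AT2G28490 and BGLU19, and 3 had no listed gene. LEA18 and M17 are late embryogenesis abundant genes, known from maturing seeds. BGLU19 had log2 signals of 4.26 and 4.24 in the overexpressor, 4.23 and 5.91 in the mutant, and 4.37 and 4.05 in wild type. M17 had 3.26 and 3.21 in the overexpressor, 3.25 and 4.37 in the mutant, and 3.23 and 3.3 in wild type. The widest such gap was 4.12, in a probe set with no listed gene that stood at 4.03 and 3.98 in the overexpressor, 3.89 and 8.21 in the mutant, and 4.09 and 3.87 in wild type. Mutant replicate 1 lay below all others in 6 probe sets, STZ and AT3G10930 among them.

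Further genes at least 2-fold apart, named after their values were seen, did not pass. AT4G39675 had 9.97 and 10.19 in the overexpressor, 8.43 and 9.12 in the mutant, and 8.74 and 9.41 in wild type (difference 1.30, limma adjusted p = 0.0701). Its overexpressor arrays were the highest of the 6. AT2G16005 had 8.55 and 8.53 in the overexpressor, 9.42 and 9.99 in the mutant, and 9.48 and 9.75 in wild type (difference -1.17, limma adjusted p = 0.0567). AT4G37220 was at -1.25 (limma adjusted p = 0.189), with -0.76 once mutant replicate 2 was dropped. AT5G17350 was at 1.30 (limma adjusted p = 0.199), with 0.83 once mutant replicate 1 was dropped.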
